A study of Sus scrofa with 13 samples.

Results

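The insulin-like growth factor (IGF) system was followed in skeletal muscle of pigs through 10 listed genes for its ligands, receptors, adaptor and binding proteins (IGF1, IGF2, IGF1R, IGF2R, INSR, IRS1, IGFBP3, IGFBP4, IGFBP5 and IGFBP6). A gene belonged to the set when its symbol was paired with an Ensembl identifier found in the count tables of both breeds. Of the 10 symbols, 8 were found, under 10 of the 25322 identifiers, and IGF2 and IGFBP3 are not analysed here. IGF1R had a second identifier with 0 reads in every pig. INSR had a second identifier, called here the second INSR model, with 2 to 42 reads per pig. The other 9 identifiers passed the filter on low counts in every comparison.

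RNA was sequenced from longissimus lumborum, the loin muscle, of 13 female pigs aged 6 months. Hampshire pigs with high loin weight (3 pigs, numbered 8, 9 and 10) were compared with Hampshire pigs with low loin weight (3 pigs, numbered 1, 2 and 3). Pietrain pigs with high loin weight (4 pigs, numbered 1, 2, 6 and 7) were compared with Pietrain pigs with low loin weight (3 pigs, numbered 3, 5 and 8). The labels name no treatment or genotype, a number names a different pig in each breed, and loin weight separates the groups within a breed. Total counts ranged from 11312755 to 20134612 per pig (median 14055410). Each pig was taken as its own replicate, since the labels number the pigs. The 2 pigs of a pair from the same group differed beyond sampling noise in 15 of 15 pairs. Such a difference cannot by itself tell 2 pigs from 2 libraries of the same pig. Skeletal muscle fibre markers, of which 6 of 10 were matched, summed to between 95200 and 251000 CPM, reads scaled to library size, in every pig, and none was at 0 in all pigs.

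IGF1 is made by liver and by muscle itself and binds IGF1R, a receptor tyrosine kinase. IGF1R and the insulin receptor (INSR) both pass the signal to the adaptor IRS1 and on to phosphoinositide kinase and AKT, which raises protein synthesis in fibres. IGF2R carries no kinase: it takes IGF2 and mannose phosphate-tagged enzymes to lysosomes. The binding proteins hold IGFs outside the cell, IGFBP6 with a preference for IGF2, and can lower or prolong their action.

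In Hampshire, 4 of the 9 identifiers tested differed between high and low loin weight. IGFBP6 and IGFBP4 were higher in pigs with high loin weight, while IGF2R and the second INSR model were lower. A gene was called when its adjusted p-value (edgeR quasi-likelihood test, Benjamini-Hochberg over all genes tested) was under 0.05 with at least a 1.2-fold change. By this rule 26.6% of the 12228 genes tested in Hampshire were called, 12% higher and 14.6% lower, so the members' 4 of 9 stands against a background that was itself high. Pigs of the 2 Hampshire groups did not overlap for 4 of the 9 members, against 45.7% of all genes. The median log2 fold change of the 9 was -0.011, against 0.029 over all genes. In Pietrain, 0 of 9 members were called by edgeR and 0% of 12065 genes, and the groups overlapped for all 9 members, against 4.53% of all genes whose groups did not. The smallest adjusted p-value of any gene there was 0.939, and DESeq2 called 0 members and 1 gene. These counts differ from those of the paper. With DESeq2 at the same thresholds, it reports genes that differ between loin weight groups in both breeds, more of them in Pietrain than in Hampshire. The reason for this difference was not tested.

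**Figure D1:**
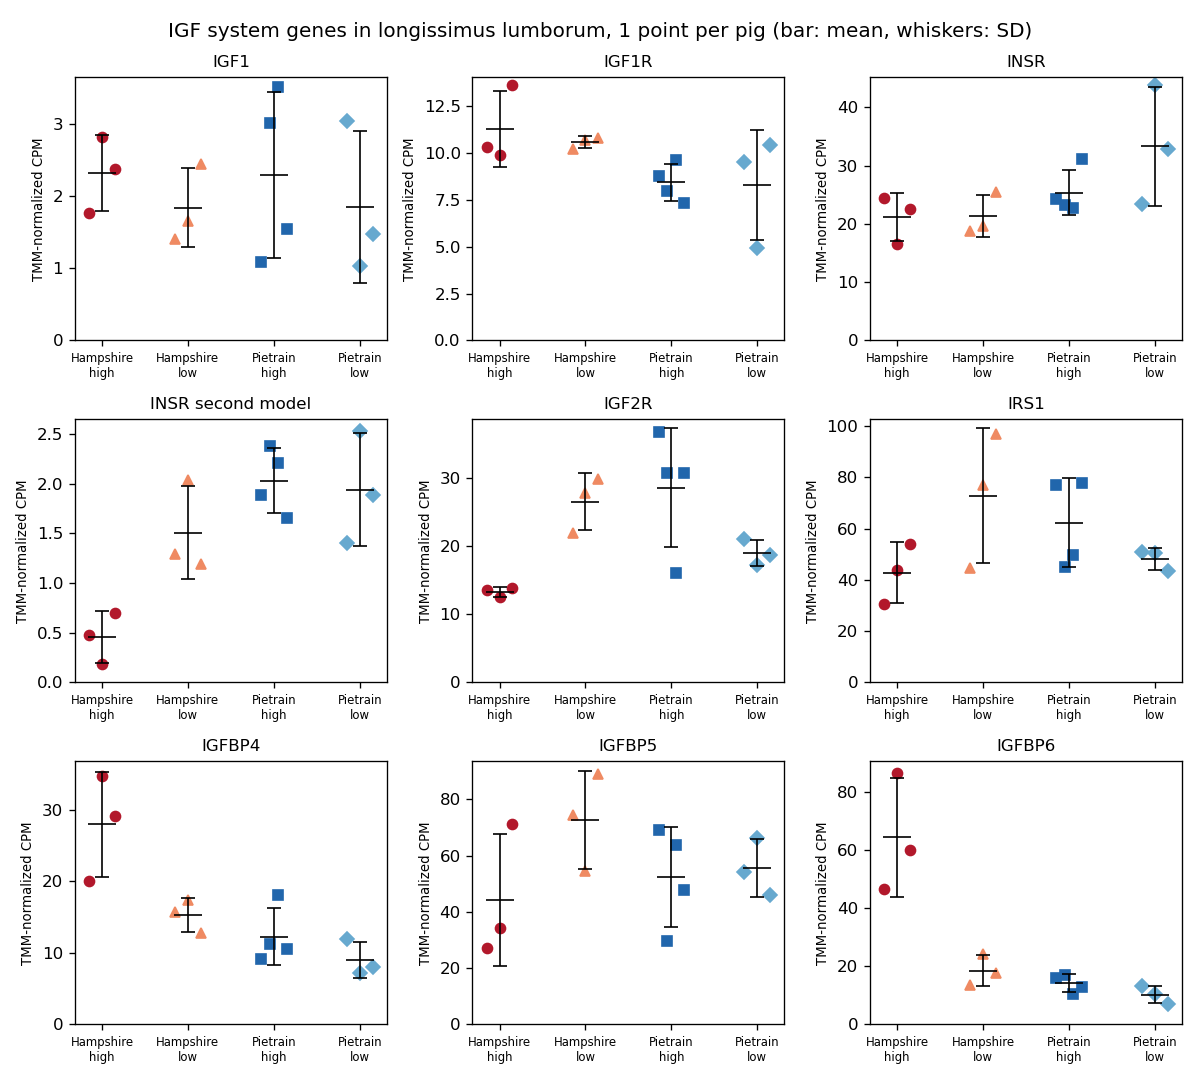
TMM-normalized CPM (vertical axis, from 0) of the 9 tested identifiers in each of the 13 pigs, by breed and loin weight group (horizontal axis). Points are pigs, bars are group means and whiskers are SDs. The 3 Hampshire pigs with high loin weight lie between 46.5 and 86.5 CPM for IGFBP6, above the 10 other pigs, and between 12.5 and 13.8 CPM for IGF2R, below them.

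IGF1, the ligand (chromosome 5, bases 85700101 to 85774105 of Sscrofa10.2), was read at low depth, by 13 to 54 reads per pig. TMM-normalized CPM of IGF1 were 1.77, 2.82 and 2.37 in Hampshire pigs 8, 9 and 10 and 1.41, 1.65 and 2.45 in Hampshire pigs 1, 2 and 3. In Pietrain they were 1.09, 3.01, 3.51 and 1.55 in pigs with high loin weight and 3.04, 1.03 and 1.48 in pigs with low loin weight. The groups overlapped in both breeds. High against low, the log2 fold change was 0.34 (SE 0.341, adjusted p = 0.49) in Hampshire and 0.33 (SE 0.53, adjusted p = 0.943) in Pietrain. The 4 group means of IGF1 lay between 1.84 and 2.32 CPM, and none of the neighbours in that order differed beyond the spread between pigs.

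IGF1R, the signalling receptor (chromosome 1, bases 153514790 to 153853782), was also close to level across loin weight. Hampshire pigs averaged 11.3 ± 2.04 CPM at high and 10.6 ± 0.348 CPM at low loin weight (SD, n = 3 each). Pietrain pigs averaged 8.42 ± 0.978 CPM (SD, n = 4) at high and 8.28 ± 2.96 CPM (SD, n = 3) at low loin weight. High against low, this was a log2 fold change of 0.10 (SE 0.193, adjusted p = 0.743) in Hampshire and 0.05 (SE 0.288, adjusted p = 0.986) in Pietrain, and with total counts alone for scaling the Hampshire value had the other sign. Pietrain pig 5, of the low group, had the lowest level of the 13 pigs, 4.91 CPM.

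INSR, the insulin receptor, was counted mainly under an identifier at chromosome 2, bases 72388087 to 72425053. INSR was at 24.4, 16.5 and 22.6 CPM in the high group of Hampshire and at 18.8, 19.7 and 25.5 CPM in the low group. In Pietrain it was at 24.3, 23.2, 22.8 and 31.1 CPM in the high group and at 23.4, 43.8 and 32.8 CPM in the low group. The groups overlapped in both breeds. The log2 fold change of INSR was -0.01 (SE 0.204, adjusted p = 0.973) in Hampshire and -0.35 (SE 0.232, adjusted p = 0.939) in Pietrain, and leaving out Hampshire pig 9 of the high group or pig 3 of the low group turned the Hampshire value positive. The within-pig log2 ratio of IGF1R to INSR reads was higher by 0.0989 in Hampshire pigs with high loin weight (exact permutation test, two-sided, p = 0.6) and by 0.448 in Pietrain pigs with high loin weight (p = 0.514).

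The second INSR model carried far fewer reads. Hampshire pigs 8, 9 and 10 had 0.477, 0.182 and 0.703 CPM of it, from 7, 2 and 11 reads. Pigs 1, 2 and 3 had 1.29, 2.04 and 1.19 CPM, from 21, 42 and 17 reads. The Hampshire groups did not overlap, and the level was lower at high loin weight, with a log2 fold change of -1.67 (SE 0.496, adjusted p = 0.0376). This call was lost without any of 5 of the 6 Hampshire pigs: the adjusted p-value was 0.0812 without pig 8, 0.0834 without pig 9, 0.0623 without pig 1, 0.129 without pig 2 and 0.0821 without pig 3. Pietrain pigs were between 1.4 and 2.53 CPM in both groups (log2 fold change 0.10, SE 0.363, adjusted p = 0.971). The 2 INSR identifiers bear 1 symbol, and how reads were shared between them is not given in the sources used here, so the split is uncertain.

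IGF2R, the receptor that clears IGF2 (chromosome 1, bases 9166935 to 9271240), was lower at high loin weight in Hampshire. Its level was 13.6, 12.5 and 13.8 CPM in pigs 8, 9 and 10 and 21.9, 27.8 and 29.9 CPM in pigs 1, 2 and 3. Pigs with high loin weight were at about the same level, and all lay below every pig with low loin weight. The means were 13.3 ± 0.736 and 26.5 ± 4.14 CPM (SD, n = 3 each), a log2 fold change of -0.996 (SE 0.174, adjusted p = 0.00632). The call held without each of the 6 Hampshire pigs in turn, at log2 fold changes from -1.16 to -0.91. After the trend of fold change with gene span was removed, the fold change of IGF2R was -0.64 (adjusted p = 0.03).

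In Pietrain the IGF2R values lay the other way. They were 36.7, 30.8, 16.1 and 30.8 CPM in pigs 1, 2, 6 and 7 of the high group and 21.1, 17.3 and 18.7 CPM in pigs 3, 5 and 8 of the low group. Pig 6 of the high group lay below all low pigs, so the groups overlapped. The log2 fold change was 0.62 (SE 0.273) with an unadjusted p of 0.0457 and an adjusted p of 0.939, so the gene was not called. IGF2R was the 1 member of 9 with an unadjusted p under 0.05 in Pietrain, where 3.3% of all genes had one.

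Whether loin weight went with the same change in both breeds was asked of a model holding all 13 pigs, by whose interaction term 5.9% of 12831 genes passed an adjusted p of 0.05. Of the 9 members, 1 passed, IGF2R. Its log2 fold change in Hampshire minus that in Pietrain was -1.58 (SE 0.344, adjusted p = 0.0169). Without Hampshire pig 3 of the low group, the adjusted p was 0.0504 at a difference of -1.55. The order of group means for IGF2R was Pietrain high (28.6 CPM), Hampshire low (26.5 CPM), Pietrain low (19.0 CPM) and Hampshire high (13.3 CPM), and in the same fit no pair of neighbours in that order passed the test.

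IRS1, the adaptor that both receptors phosphorylate (chromosome 15, bases 142086244 to 142089969), was at 30.6, 43.8 and 54.1 CPM in Hampshire pigs with high loin weight. In those with low loin weight it was at 44.7, 76.8 and 97.0 CPM, and pig 1 of the low group lay within the range of the high group. Its log2 fold change was -0.76 (SE 0.301, adjusted p = 0.0909), short of a call. Without pig 1 of the low group IRS1 was called (-1.06, adjusted p = 0.0299). It was also called with DESeq2 (adjusted p = 0.039) and after removal of the gene span trend (-1.18, adjusted p = 0.0202). Pietrain values were 77.0, 45.0, 49.5 and 77.9 CPM in the high group and 50.8, 50.6 and 43.3 CPM in the low group, with a log2 fold change of 0.41 (SE 0.238, adjusted p = 0.939). For IRS1 the effects in the breeds differed by -1.14 (SE 0.408, adjusted p = 0.117), which did not pass. It passed without low pig 1 of Hampshire (-1.45, adjusted p = 0.045) and with the span trend removed (-1.51, adjusted p = 0.0436).

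IGFBP6, the binding protein that prefers IGF2 (chromosome 5, bases 18768002 to 18772057), had the largest fold change of the 9 members in Hampshire. It was at 46.5, 86.5 and 59.9 CPM in pigs 8, 9 and 10 with high loin weight and at 13.7, 24.3 and 17.5 CPM in pigs 1, 2 and 3 with low loin weight. The lowest pig of the high group was above the highest of the low group. The means were 64.3 ± 20.4 and 18.5 ± 5.34 CPM (SD, n = 3 each), a 3.47-fold difference (log2 1.79, SE 0.278, adjusted p = 0.0043), which placed IGFBP6 at percentile 98.7 of the fold changes of all genes. The call held without each Hampshire pig in turn, at log2 fold changes from 1.49 to 2.03.

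Pietrain pigs had IGFBP6 at 16.1, 17.1, 10.4 and 13.0 CPM in the high group and at 13.3, 10.4 and 7.13 CPM in the low group. The groups overlapped, and the log2 fold change was 0.50 (SE 0.273, adjusted p = 0.939). The difference between the breeds was 1.33 (SE 0.405, adjusted p = 0.0697) with edgeR, which did not pass, and 1.35 (adjusted p = 0.0238) with DESeq2, which did. In the order of group means, Hampshire high (64.3 CPM) was above Hampshire low (18.5 CPM) beyond the spread between pigs (adjusted p = 0.00139 in the fit over all pigs). Hampshire low, Pietrain high (14.2 CPM) and Pietrain low (10.3 CPM) followed, and neighbours among these did not pass the test.

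IGFBP4, a binding protein that mostly restrains IGFs until it is cleaved (chromosome 12, bases 22275243 to 22290067), was higher at high loin weight in Hampshire. It was at 20.1, 34.7 and 29.2 CPM in pigs 8, 9 and 10 and at 15.7, 17.4 and 12.8 CPM in pigs 1, 2 and 3. The groups did not overlap, and the means were 28.0 ± 7.39 and 15.3 ± 2.33 CPM (SD, n = 3 each), with a log2 fold change of 0.87 (SE 0.233, adjusted p = 0.0264). This call was less steady than that of IGFBP6: it was lost without pig 9 (adjusted p = 0.0914) or pig 10 (0.0798) of the high group and without pig 1 (0.0648) or pig 3 (0.106) of the low group. In Pietrain, IGFBP4 was at 9.19, 11.2, 18.1 and 10.5 CPM in the high group and at 11.9, 7.2 and 8.0 CPM in the low group (log2 fold change 0.47, SE 0.297, adjusted p = 0.939). The effects in the 2 breeds did not differ beyond their error for this gene (0.43, SE 0.391, adjusted p = 0.563).

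IGFBP5, the binding protein known for its rise in differentiating muscle cells (chromosome 15, bases 131680310 to 131684630), lay the other way in Hampshire without a call. Pigs 8, 9 and 10 had 27.2, 34.3 and 71.1 CPM, and pigs 1, 2 and 3 had 74.4, 54.5 and 89.1 CPM. Pig 10 of the high group, at 71.1 CPM, lay within the low group. Its log2 fold change was -0.71 (SE 0.355, adjusted p = 0.165). Without pig 10 it was -1.25 (adjusted p = 0.0234), and after removal of the gene span trend it was -1.11 (adjusted p = 0.0437). In Pietrain the means were 52.5 ± 17.7 CPM (SD, n = 4) and 55.4 ± 10.3 CPM (SD, n = 3), with a log2 fold change of -0.04 (SE 0.275, adjusted p = 0.986) that turned positive when total counts alone were used for scaling.

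Read counts of IGFBP6 and IGFBP5 were also set against each other within each pig, as a description chosen after the values were seen. The ratio of IGFBP6 to IGFBP5 reads ran from 0.842 to 2.53 in the high group of Hampshire and from 0.184 to 0.445 in the low group. In Pietrain pigs it was between 0.156 and 0.578. The ratio cancels any scaling between libraries, and the Hampshire pigs with high loin weight had the 3 highest ratios of the 13 pigs.

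**Figure D2:**
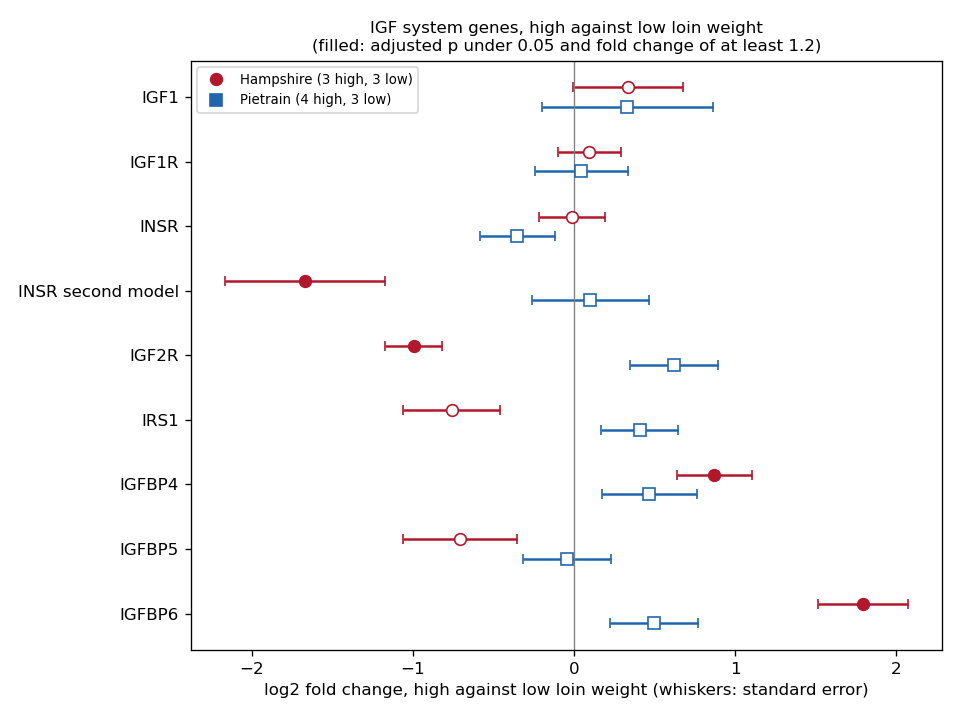
Log2 fold change for high against low loin weight (horizontal axis) of the 9 tested identifiers (vertical axis) in Hampshire (circles, 3 against 3 pigs) and Pietrain (squares, 4 against 3 pigs), with standard errors as whiskers. Filled symbols passed the adjusted p of 0.05 and the fold change of 1.2: IGFBP6, IGFBP4, IGF2R and the second INSR model in Hampshire, and none in Pietrain.

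An exact permutation test on log2 CPM (two-sided) gave the smallest p-value that 3 against 3 pigs allow, 0.1, for each of the 4 called Hampshire members. For the other 5 it gave p-values from 0.2 (IRS1 and IGFBP5) to 1 (INSR). In Pietrain, where 0.0571 is the smallest possible two-sided p-value, the exact values were between 0.171 (INSR) and 0.857 (IGFBP5). In neither breed could this test give a p-value under 0.05.

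Summed markers of 3 cell types, of the 8 lists read, lay higher in the high group of Hampshire without overlap. Of single genes, 45.7% did not overlap between the Hampshire groups, in either direction. Fibroblast and connective tissue markers (7 of 8 matched) summed to 1950 to 5050 CPM in the high group of Hampshire and to 760 to 1660 CPM in its low group. In Pietrain it was 852 to 2320 CPM and 959 to 1620 CPM. Of these 7 genes, 3 were called higher in Hampshire, where 12% of all genes were, and 0 in Pietrain. Their median log2 fold change was above that of all genes in both breeds. It was 1.25 against 0.029 in Hampshire and 0.25 against 0.02 in Pietrain. Macrophage markers (8 of 9 matched) summed to 95.8 to 151 CPM against 37.2 to 78.0 CPM in the Hampshire groups, and adipocyte markers (3 of 6 matched) to 26.2 to 75.9 CPM against 9.95 to 16.0 CPM. Of these, 3 of 8 macrophage and 2 of 3 adipocyte markers were called higher. The median log2 fold change was 1.10 for macrophage and 1.82 for adipocyte markers in Hampshire. In Pietrain it was 0.64 and 0.76, with 0 called. Among the other lists, 2 of 6 muscle fibre markers were called higher and 1 lower, 1 of 6 mural markers was called higher, and none of the 4 endothelial, 4 satellite cell or 4 blood markers tested was called. Medians of these other lists ran from 0.127 to 0.677 in Hampshire and from 0.04 to 0.202 in Pietrain. None of the markers in the 8 lists was at 0 in all pigs. Fibroblasts are a known source of IGFBP4 and IGFBP6, and the part of these cells in the differences of the members was not tested. In RNA from whole muscle, more cells of a type and more RNA per cell cannot be told apart.

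**Figure D3:**
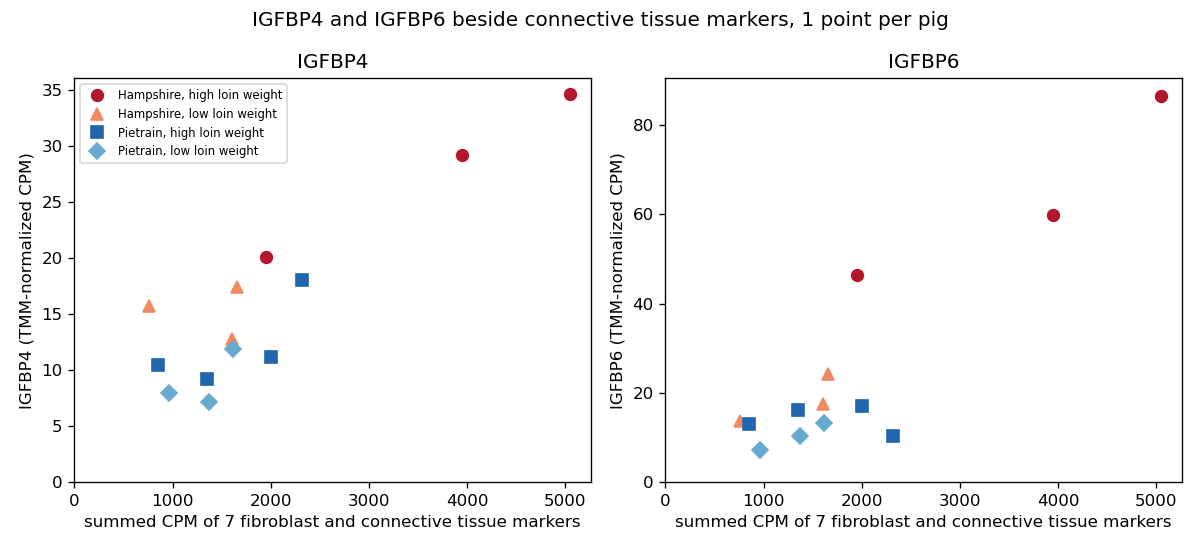
Level of IGFBP4 (left) and IGFBP6 (right) in TMM-normalized CPM (vertical axes, from 0) against the summed CPM of 7 fibroblast and connective tissue markers (horizontal axis), with 1 point per pig and the 4 groups by colour and shape. In Hampshire pigs with high loin weight the marker sum was 1950 to 5050 CPM, IGFBP6 46.5 to 86.5 CPM and IGFBP4 20.1 to 34.7 CPM. In the other pigs the marker sum was 760 to 2320 CPM, IGFBP6 7.13 to 24.3 CPM and IGFBP4 7.2 to 18.1 CPM.

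The breeds were also compared at each loin weight. At low loin weight 0 of 9 members were called, against 17.9% of 12831 genes, with edgeR, although 3 members (IGFBP4, IGFBP6 and INSR) had an unadjusted p under 0.05, as did 35.9% of all genes. DESeq2 called 2 members there, IGFBP6 and INSR. With edgeR, 1 member was called without Hampshire pig 1 (IGFBP6), and 3 were called without Pietrain pig 3 of the low group (IGFBP4, IGFBP6 and INSR) or pig 6 of the high group (IGF2R, IGFBP4 and IGFBP6). At high loin weight 4 of 9 were called, against 46.8% of all genes (22.6% higher and 24.2% lower in Hampshire). IGFBP6 was higher in Hampshire than in Pietrain pigs by 2.18 on the log2 scale (SE 0.276, adjusted p = 5.14e-05) and IGFBP4 by 1.19 (SE 0.264, adjusted p = 0.00245). IGF2R was lower in Hampshire (log2 -1.10, SE 0.239, adjusted p = 0.00216), as was the second INSR model (log2 -2.09, SE 0.442, adjusted p = 0.00182). These 4 calls held without each of the 13 pigs in turn. That of IGF2R was lost after removal of the gene span trend (-0.58, adjusted p = 0.0549). In that fit IRS1 was called lower in Hampshire (-1.13, adjusted p = 0.004) and IGF1R higher (0.84, adjusted p = 0.0106). Each breed came in a count table of its own, so breed and any difference between the tables cannot be told apart. Each breed comparison shares its pigs with the loin weight comparisons, so they are not independent of them.

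Other genes of the pathway were read from a list of 45 symbols, of which 40 were matched. In Hampshire 32 of them were tested, and 2 were called higher and 10 lower at high loin weight. That is 37.5% of the tested list, against 26.6% of all genes. With the gene span trend removed, 10 were called, against 2196 of 9945 genes with a span. Without that removal, the median log2 fold change of the 32 tested genes was -0.142, against 0.029 over all genes. In Pietrain 0 of 31 were called and 0 had an unadjusted p under 0.05.

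ZBED6, a transcription factor that represses IGF2 in pig muscle, had the lowest adjusted p-value of the list in Hampshire. It was at 2.45, 0.636 and 0.959 CPM in pigs 8, 9 and 10 with high loin weight, from 36, 7 and 15 reads, and at 23.3, 20.9 and 23.7 CPM in pigs 1, 2 and 3 with low loin weight, from 380, 431 and 338 reads. All 10 pigs outside the Hampshire high group were between 20.9 and 50.1 CPM. The log2 fold change of ZBED6 was -4.04 (SE 0.386, adjusted p = 0.00118) in Hampshire and 0.11 (SE 0.277, adjusted p = 0.962) in Pietrain, where it was negative without high pig 1 or low pig 5. The difference between the breeds was -4.11 (SE 0.516, adjusted p = 0.00251). The Hampshire call held without each pig in turn, from -4.81 to -3.77. ZBED6 (chromosome 9, bases 70869462 to 70872407) is known to lie in an intron of ZC3H11A, which is not analysed here. In the coordinates used here 0 other gene models overlapped ZBED6, and a part of unspliced ZC3H11A reads in its counts was not tested.

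Upstream of the ligand, GHR, the growth hormone receptor through which IGF1 is induced, fell by 1.13 on the log2 scale from low to high loin weight in Hampshire (SE 0.183, adjusted p = 0.0049). GHR was at 16.8, 16.2 and 12.1 CPM in pigs with high loin weight and at 36.5, 32.2 and 29.5 CPM in pigs with low loin weight. JAK2, the kinase bound to that receptor, fell by 1.15 (SE 0.235, adjusted p = 0.0102). ADAM9, a membrane metalloprotease, fell by 1.30 (SE 0.2, adjusted p = 0.00429), from 9.55 ± 0.954 to 3.87 ± 0.207 CPM (SD, n = 3 each).

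Below the receptors, SOS1, which activates Ras, fell by 1.69 (SE 0.264, adjusted p = 0.00438), from 15.9 ± 2.43 to 4.96 ± 1.69 CPM (SD, n = 3 each). PIK3CA, the catalytic subunit of phosphoinositide kinase, fell by 1.15 (SE 0.187, adjusted p = 0.0051). Genes called lower also included PTPN11, IDE and PIK3CB. The breed difference passed the test for ADAM9 (-1.37, SE 0.284, adjusted p = 0.0141) and SOS1 (-1.63, SE 0.325, adjusted p = 0.0121), but not for GHR (adjusted p = 0.0545), PIK3CA (0.0824) or JAK2 (0.123). These genes, and ZBED6, were named for their adjusted p-values in Hampshire. That effect is part of the breed difference, so its test was not independent of the choice.

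The 2 pathway genes called higher in Hampshire were GRB10, an adaptor that dampens insulin and IGF1 receptor signalling, and IGFBP7, a secreted relative of the binding proteins with low affinity for IGFs. GRB10 was at 150, 195 and 173 CPM in the high group and at 84.8, 99.0 and 103 CPM in the low group (log2 fold change 0.85, SE 0.168, adjusted p = 0.00943), and in the fit over all pigs its adjusted p was 0.0588. IGFBP7 was at 174, 272 and 238 CPM against 130, 137 and 128 CPM (log2 0.79, SE 0.195, adjusted p = 0.0199). The call of IGFBP7 was lost without high pig 9 (adjusted p = 0.0644) or 10 (0.0617) and without low pig 1 (0.0554), 2 (0.053) or 3 (0.0805).

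**Figure D4:**
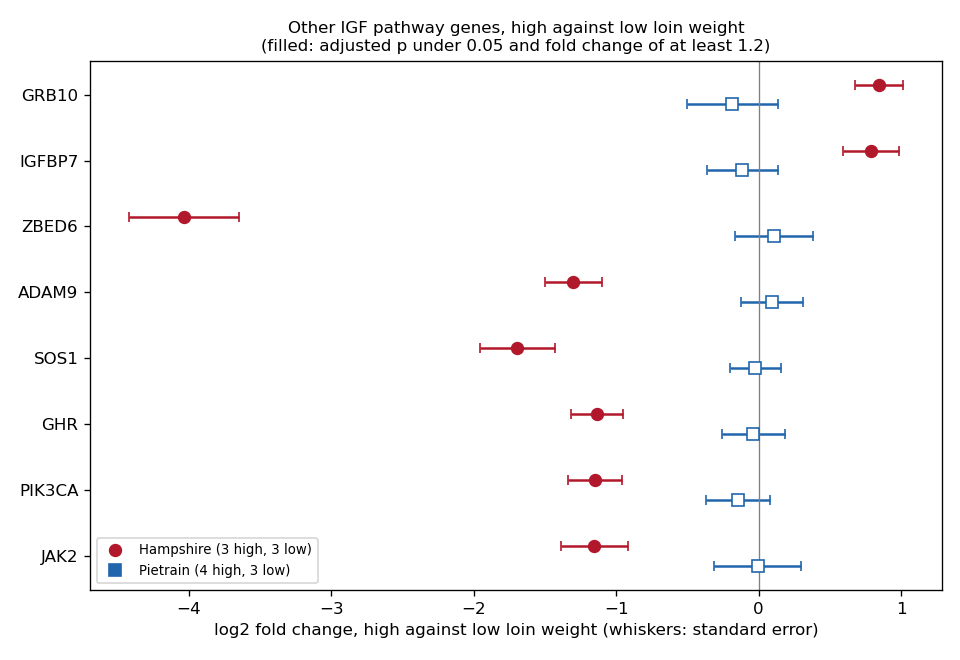
Log2 fold change for high against low loin weight (horizontal axis) of the 8 named pathway genes (vertical axis) in Hampshire (circles, 3 against 3 pigs) and Pietrain (squares, 4 against 3 pigs), with standard errors as whiskers. Filled symbols passed the adjusted p of 0.05 and the fold change of 1.2, which all 8 did in Hampshire, from -4.04 (ZBED6) to 0.85 (GRB10), and none did in Pietrain.

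Over all genes, log2 fold changes in Hampshire tended to be lower at a longer gene span, the distance from a gene's start to its end. Across 9945 genes with a span, log2 fold change and span had a Spearman correlation of -0.386, given as a description since genes are not independent replicates. Spans of the members ran from 3726 bases (IRS1) and 4056 bases (IGFBP6) to 104306 bases (IGF2R) and 338993 bases (IGF1R). Genes of short span lay on both sides. IGFBP6 was higher at high loin weight, while ZBED6 (2946 bases) was lower. IRS1 and IGFBP5 (4321 bases) lay lower without a call. When the trend was removed, IGFBP6 (log2 1.39), IGFBP4 (0.79) and IGF2R (-0.64) remained called, and IRS1 and IGFBP5 were added. The second INSR model has no span and was not in that fit. Of the pathway genes, ZBED6, GHR, JAK2, PIK3CA, ADAM9, SOS1, GRB10 and IGFBP7 remained called. The falls of GHR (-0.79), JAK2 (-0.81), PIK3CA (-0.84), ADAM9 (-0.96) and SOS1 (-1.37) were smaller than before. Those of ZBED6 (-4.46), GRB10 (1.19) and IGFBP7 (1.12) lay further from 0. The cause of the trend was not tested.

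For each member, the 3 genes of 9715 with a unique symbol whose log2 CPM was most like its own over the 13 pigs were taken by Pearson r. These values are descriptions, and they include the separation of Hampshire pigs with high loin weight from the rest. The closest to IGF1 were TFPI (r = 0.856), RNF180 (0.854) and VAV3 (0.845). The closest to IGF1R were SOCS2, an inhibitor of growth hormone signalling (0.925), CBX2 (0.892) and STN1 (0.888). Genes close to INSR included CASC3 (0.876) and C2orf68 (0.872), and the second INSR model was closest to IMPAD1 (0.95), CKAP5 (0.949) and ZMYM4 (0.948).

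IGF2R was closest to TNS1 (r = 0.934), NFIX (0.933) and ZCCHC14 (0.93). IRS1 was closest to SRRM2 (0.887), GZF1 (0.853) and MEF2D (0.844). The closest genes differed between the binding proteins. With each other, IGFBP4 and IGFBP6 had r = 0.857 over the 13 pigs and 0.231 after the group means were subtracted. IGFBP4 was closest to FXYD5 (0.962), TIMP1, an inhibitor of matrix metalloproteases (0.949), and NKG7 (0.944). IGFBP6 was closest to LPCAT4 (0.973), RPL3 (0.965) and LYVE1, a hyaluronan receptor of lymphatic vessels and some macrophages (0.965). IGFBP5 was closest to SRD5A1 (0.858), OSBP (0.803) and FAM184B (0.734). After the group means were subtracted, r fell to 0.838 for IGFBP6 with LPCAT4 and to 0.89 for IGFBP4 with FXYD5, and it was 0.868 for IGF2R with TNS1.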

How the data were processed

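The authors aligned reads of 13 pigs to Sscrofa10.2 and deposited raw counts per Ensembl gene, 1 table per breed. The submitters' processing notes name FastQC, STAR, RSEM and DESeq2 without versions, and the annotation release is not given in the sources used here. The deposited DESeq2 tables (fold changes and p-values per breed) were used only for symbols and coordinates. Other symbols came from a RefSeq table of Sscrofa11.1, used for names only, so that 13168 identifiers had one. The labels put 4 Pietrain pigs in the high group, 1 more than the paper's table of muscle weights, and all were used.

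Counts were tested in R 4.3.3 with edgeR 4.0.16 (TMM, filterByExpr, glmQLFit and glmQLFTest), within each breed for loin weight and over all pigs otherwise, with Benjamini-Hochberg adjustment over all genes tested. The call threshold was an adjusted p of 0.05 with a minimum fold change of 1.2, which was not applied to the difference between breeds. Values per pig are CPM by the TMM factors over all pigs. Permutation tests used log2(CPM + 0.5), and ratios used counts + 0.5. Alternatives were DESeq2 1.42.0, its size factors, total counts only, other filters, removal of a lowess trend (span 0.3) with gene length, and leaving out each pig. Scripts were tested on simulated data. The members and lists were chosen with earlier results of these data known. All members are named, and pathway genes with the smallest adjusted p, at most 6 per direction. Some genes that these rules would name are not reported here. No GC or exon length correction and no microRNA data were used here. Figures were drawn with matplotlib 3.10.9.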

Additional observations from a re-analysis of the deposited data

Results flagged for a closer look

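Among the 9 members and the pathway genes whose log2 fold changes are given, 4 passed the test of the difference between breeds, as did 5.9% of all 12831 genes. The pathway genes had been chosen by their adjusted p-values in Hampshire. That effect is part of this difference, so for them the test was not independent of the choice. The loin weight effect in Hampshire minus that in Pietrain was -1.58 on the log2 scale for IGF2R (SE 0.344, adjusted p = 0.0169 by edgeR), with 3 of 3 Hampshire pigs of the high group below all low pigs and 3 of 4 Pietrain pigs of the high group above all low pigs. It was -4.11 for ZBED6 (adjusted p = 0.00251), -1.37 for ADAM9 (adjusted p = 0.0141) and -1.63 for SOS1 (adjusted p = 0.0121). In the 9 groups of 4 pigs, 1 for each member, no pig lay far enough from the others to be picked out by Dixon's test.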

How the results depend on the processing

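No paired analysis was possible because a pig number names a different animal in each breed. The groups of the 5 comparisons share fewer than 2 numbers, and Hampshire low and Pietrain high, set side by side only in the order of group means, share 2. Scaling by total counts moved the median log2 fold change of all genes to -0.118 in Hampshire, 0.106 in Pietrain, -0.289 for the difference between breeds and -0.217 between breeds at high loin weight. With it, uncalled log2 fold changes changed sign: IGF1R to -0.0471 in Hampshire, IGFBP5 to 0.0527 in Pietrain, IGF1 to -0.2518 and IGF1R to -0.1693 for the difference between breeds, and IGF1 between breeds to 0.0052 at low and -0.2466 at high loin weight. With the gene span trend removed, INSR turned to 0.1711 in Hampshire and 0.0505 between breeds at high loin weight, and IGF1 to 0.2198 between breeds at low loin weight, where a fit of the 2 groups alone gave IGF1 0.0016.

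Members called for the difference between breeds were 2 with DESeq2 and 2 with the span trend removed, against 1. Between breeds at low loin weight they were 2 with DESeq2, 1 with at least 10 counts required in every pig and 1 with the 2 groups alone, against 0. That filter leaves the second INSR model out by construction. With both INSR identifiers summed, a setting chosen after seeing the data, INSR was not called for loin weight in either breed.

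Leaving out 1 pig at a time gave 2 to 4 members called in Hampshire (2 without high pig 9 or low pig 3), 0 to 2 for the difference between breeds, and 0 to 3 between breeds at low loin weight. The IGF1R to INSR ratio then ranged from -0.021 to 0.27 in Hampshire and from -0.111 to 0.817 in Pietrain. Uncalled log2 fold changes that crossed 0 ranged from -0.078 to 0.1505 (IGF1R) and -0.152 to 0.1259 (INSR) in Hampshire. In Pietrain they ranged from -0.0706 to 0.3904 (ZBED6), -0.2351 to 0.2488 (IGF1R), -0.1726 to 0.1753 (IGFBP5) and -0.0527 to 0.3111 (second INSR model). For the difference between breeds they ranged from -0.5816 to 0.277 (IGF1) and -0.1786 to 0.3009 (IGF1R), and for IGF1 between breeds from -0.3024 to 0.5922 at low and -0.2135 to 0.2736 at high loin weight.

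Over all genes, calls fell from 3256 to 1224 without Hampshire low pig 3 and 1760 without high pig 10. For the difference between breeds 757 became 1224 with DESeq2, 408 with the span trend removed and 379 to 1052 with 1 pig left out. Between breeds at low loin weight 2300 became 109 to 3091 with 1 pig left out, the lowest without Hampshire low pig 2. The cause of these changes was not tested. Depth limits IGF1 and the second INSR model most, at 13 to 54 and 2 to 42 reads per pig.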
